A study of Mus musculus with 2 samples.

Results

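Mesothelial cells of the aortic arch were taken as the kept barcodes in which at least 2 of 5 mesothelial genes, Upk3b, Msln, Upk1b, Lrrn4 and Wt1 (the gate genes), had at least 1 UMI, that is, 1 counted molecule. The rule gave 71 members among 8155 kept cells, 42 of 5416 in the ND library and 29 of 2739 in the HFD library. The members were thus chosen by the measured UMIs of these 5 genes. Barcodes with under 200 genes or under 200 UMIs, or with more than 30% of UMIs from mitochondrial genes, had been removed. All mice were male Apoe-/- C57BL/6 animals 16 weeks old, and every cell of both groups therefore lacked functional Apoe, the gene of a lipoprotein ligand. The control (ND) group had been given a normal diet, and the HFD group a high-fat, high-cholesterol diet for 12 weeks from 4 weeks of age. Each library was made by droplet single-cell RNA sequencing from the minced aortic arches of 2 mice pooled together, dissociated with enzymes of a lung kit, and no wild-type mice were included. Apoe itself had 1 UMI in the mesothelial cells of each library, which checks nothing about the genotype because the sources used here do not state the deleted part. With 1 library per diet, no difference between diets could be tested, and diet, mice and library preparation cannot be told apart. Both values are given instead, with exact 95% intervals in parentheses that cover counting error only.

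Mesothelium is the flat cell layer that lines the pleural, pericardial and peritoneal cavities and covers the organs within them. It arises from mesoderm but makes keratins and cell junctions like an epithelium, carries a coat of membrane mucins and proteoglycans, and secretes a lubricating fluid. The pericardial layer folds back over the roots of the great vessels, so a dissected arch can carry pieces of it.

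The label was checked against 9 mesothelial markers that the rule did not use and against markers of airway cells, and most members fell into 2 kinds. In 54 members, with at least 3 gate genes, all but 1 cell had at least 3 of the 9 markers. That cell is of an ND pair, described further on, that lacked Gpm6a, Muc16 and Msln. These were 28 ND cells, or 0.517% (0.344 to 0.746) of the kept cells, and 26 HFD cells, or 0.949% (0.621 to 1.39). At least 3 of the 9 markers were counted in 27 of the 28 ND cells (96.4%, 81.7 to 99.9) and in 26 of the 26 HFD cells (100%, 86.8 to 100). Of these ND cells, 1 had 3 of the 9 markers but 0 UMIs of Gpm6a, Nkain4 and Msln. It held 52 UMIs of 5 endothelial markers. All 14 ND members with 2 gate genes also had at least 3 of the 9 markers, so this count alone does not set mesothelial cells apart. Among kept cells without any gate gene, 24 of 5283 ND cells (0.454%) and 0 of 2664 HFD cells had as many, at median depths of 3680 and 5336.5 UMIs. Of the most telling markers, Gpm6a, a neuronal-type membrane glycoprotein, was counted in 25 of 28 and 26 of 26 mesothelial cells, and Nkain4, a partner of the sodium pump, in 24 and 25. Muc16, the membrane mucin that binds mesothelin, was counted in 22 and 24 cells, and Cldn15, a pore-forming claudin, in 25 and 22. In cells with at least 3 of 5 endothelial markers, Gpm6a was counted in 2.80% (ND) and 1.14% (HFD) and Muc16 in 0.0379% and 0%, at median depths of 3933.5 and 5546 UMIs, whereas Cldn15 was counted in 32.8% and 42.0% of them. After each cell was thinned to 1000 UMIs, Gpm6a was still found in 57.1% of ND and 65.4% of HFD mesothelial cells.

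In 14 ND members the label did not hold. Each of them had UMIs of Msln and Upk1b and of no other gate gene, 211 and 34 UMIs in all. Each carried 2559 to 17484 UMIs of 5 airway club cell markers (Scgb1a1, Scgb3a2, Bpifa1, Cyp2f2 and Bpifb1), while no other ND member had more than 6 such UMIs and the HFD members had 0. Nkain4, Bnc1 and Cldn15 were counted in 0 of these 14 cells, which allows up to 21.4% of cells with a UMI, and Gpm6a in 2. Muc16 was counted in 12 and Krt7 in 13 of them, and Krt8, Krt18 and Krt19 in all 14, so the keratins, which airway epithelium also makes, did not separate them from mesothelial cells. They were the deepest members, with 16167 to 61331 UMIs, and held 486240 of the 683200 UMIs of the 42 ND members, or 71.2%. A further 186 ND cells outside the rule, and 0 HFD cells, had at least 3 of the 5 airway markers. These 14 cells are called airway-marked members here, and results are given with and without them.

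**Figure D1:**
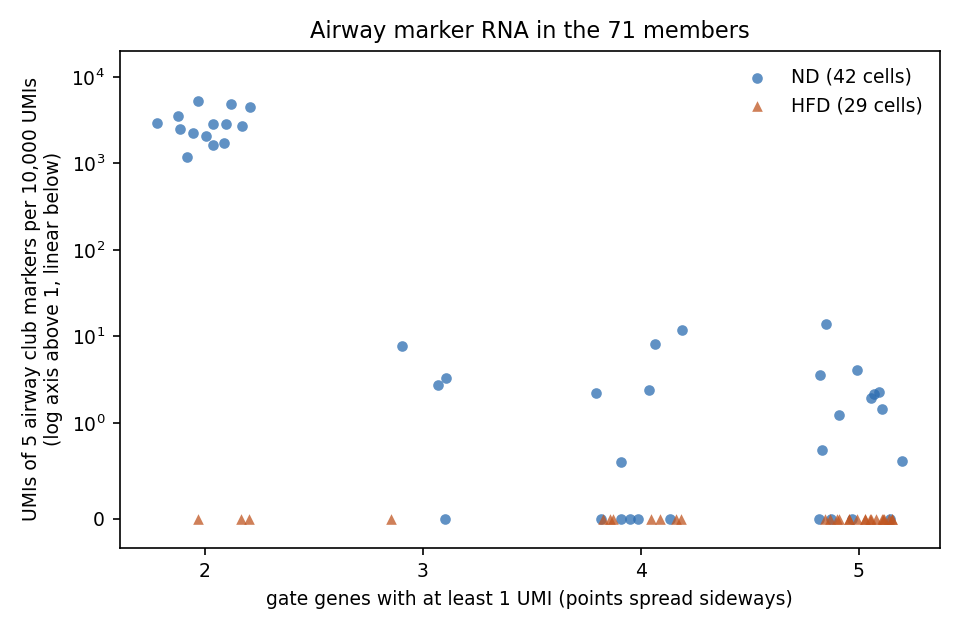
Airway marker RNA in the 71 members. Each point is a cell, placed by its number of gate genes (horizontal) and by its UMIs of 5 airway club markers per 10000 UMIs (vertical, logarithmic above 1 and linear below). The 14 ND cells with 2 gate genes lie far above all other cells, and the 29 HFD cells lie at 0.

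**Figure D2:**
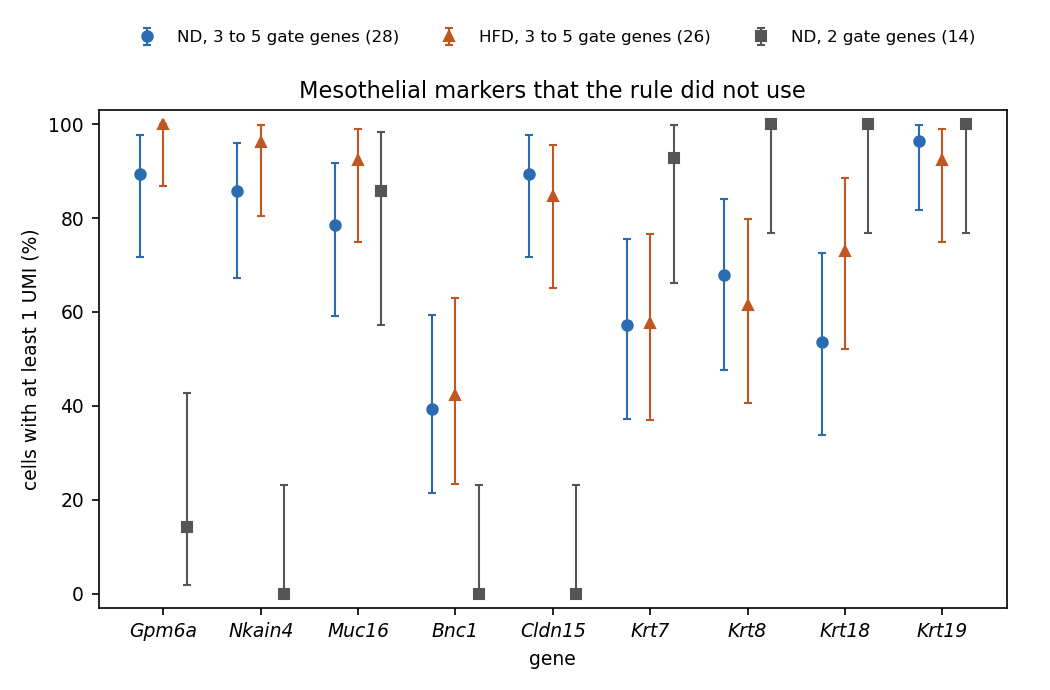
Share of cells with at least 1 UMI of 9 mesothelial markers that the rule did not use (vertical, percent), in 28 ND cells and 26 HFD cells with 3 to 5 gate genes and in the 14 ND cells with 2 gate genes. Bars are exact 95% intervals. The shares are without thinning, and the 14 cells are deeper than the others. Gpm6a, Nkain4 and Cldn15 separate the 14 cells from the others, the intervals of Bnc1 overlap, and at these depths Muc16 and the 4 keratins do not separate them.

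The 3 HFD members with 2 gate genes all had Upk3b, together with Msln, Lrrn4 or Wt1, and held 5217, 21828 and 9241 UMIs. They carried 7, 4 and 2 of the 9 outside markers and 1, 116 and 49 UMIs of 5 endothelial markers in the same order. Just outside the rule, 91 ND cells and 46 HFD cells had 1 gate gene. In the ND library this was most often Msln (40 cells, 200 UMIs) or Wt1 (30 cells, 56 UMIs), and 37 of the 91 cells had at least 3 outside markers. Of the 91, 33 had at least 3 of the 4 keratins, 1 had at least 2 of Gpm6a, Nkain4, Muc16 and Bnc1, and 32 had at least 300 airway marker UMIs. In the HFD library it was most often Wt1 (31 cells, 37 UMIs), and 0 of the 46 cells had at least 3 outside markers. Members with 2 gate genes held 2 to 62 (ND) and 2 to 13 (HFD) gate UMIs, and cells with 1 gate gene held 1 to 23 and 1 to 3.

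By the rule as it stands, members made up 0.775% (0.559 to 1.05) of kept ND cells and 1.06% (0.710 to 1.52) of kept HFD cells, and the intervals overlap. They also overlap for the 54 mesothelial cells. A mitochondrial limit of 20% in place of 30% left fewer members, 37 in ND, with the 14 airway-marked cells among them, and 19 in HFD. Their shares were 1.05% and 1.77% of the smaller number of cells kept under that limit. No barcode was shared by members of both libraries, although the libraries shared 39 barcodes in all and 1 among kept cells.

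In all 71 members, 448 of 2484 measured genes were at least 2-fold higher in HFD (18%) and 220 at least 2-fold lower (8.86%), where a gene was measured with at least 50 UMIs over both libraries. The ND members held 135133 airway marker UMIs, of which 37 lay outside the 14 airway-marked cells. Scgb1a1, the club cell secretory protein, had 70759 UMIs against 0 in HFD members, and Bpifa1, a secreted airway defence protein, 43016 against 0. Without these 14 cells, 67 genes were higher and 60 lower. Of the genes measured in all members, 77 (3.1%) were at least 4-fold over all other kept cells in both libraries. The 2-fold split also depended on scaling, since 67.1% of the genes past 2-fold were higher in HFD with totals, 28.8% with a median of ratios and 39.6% with each cell weighted equally. All further values are therefore from the 54 mesothelial cells. They held 196960 UMIs in ND, with 1984 to 16892 per cell and a median of 4707.5, and 179092 in HFD, with 1438 to 14087 per cell and a median of 6095. Mitochondrial UMIs took a median of 12.6% and 15.4%. Levels are given as UMIs of a gene per 1000000 UMIs of these cells (CPM), and differences as log2 of the HFD over the ND level.

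The 5 gate genes chose the cells, so their levels are a description. Upk3b, a uroplakin of the apical membrane (ENSMUSG00000042985, chr5:136038496-136046487 on the plus strand of GRCm38), had a lowest, median and highest UMI count per cell of 1, 14 and 56 in ND and 5, 16.5 and 60 in HFD. Its level was 2437 CPM in ND and 2764 CPM in HFD, with 0.38 and 0.18 CPM in all other kept cells. Msln, mesothelin, was counted in 23 of 28 and 26 of 26 cells, with medians of 4.5 and 5.5 UMIs, at 929 and 1189 CPM. The tetraspanin Upk1b was at 366 and 491 CPM, the leucine-rich repeat protein Lrrn4 at 508 and 419 CPM and the transcription factor Wt1 at 442 and 447 CPM. Because the rule used all 5 genes, no likeness or difference between the libraries is read from their levels. Their counts per cell overlapped between the libraries for all 5 genes, which is a description in the same way.

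The promoters of 3 surface genes of these cells are shown because they share expression here and Upk3b and Lrrn4 share a short motif. The 250 bases before the RefSeq start are given 5′ to 3′ on the gene's strand in GRCm38.p6, and capitals mark GGAATG, the core of the site of TEAD factors, or its reverse complement. RefSeq sequences were matched for Upk3b (chr5:136038246-136038495, plus strand), Lrrn4 (chr2:132880863-132881112, minus strand) and Muc16 (chr9:18674604-18674853, minus strand), and not for Msln, Upk1b and Wt1.

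Upk3b: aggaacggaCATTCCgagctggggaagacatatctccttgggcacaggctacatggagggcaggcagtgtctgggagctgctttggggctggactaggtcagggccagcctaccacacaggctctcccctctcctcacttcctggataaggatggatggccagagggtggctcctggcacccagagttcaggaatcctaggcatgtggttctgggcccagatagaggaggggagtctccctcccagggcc
Lrrn4: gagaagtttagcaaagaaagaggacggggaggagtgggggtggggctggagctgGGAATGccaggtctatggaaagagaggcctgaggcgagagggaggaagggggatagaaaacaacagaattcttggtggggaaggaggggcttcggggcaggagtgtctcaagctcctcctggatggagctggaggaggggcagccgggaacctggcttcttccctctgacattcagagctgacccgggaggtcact
Muc16: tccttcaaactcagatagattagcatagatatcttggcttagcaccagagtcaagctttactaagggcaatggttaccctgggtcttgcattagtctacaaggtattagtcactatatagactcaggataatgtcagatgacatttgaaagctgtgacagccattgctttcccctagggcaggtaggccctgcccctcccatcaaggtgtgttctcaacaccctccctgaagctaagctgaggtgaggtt

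The motif began 241 bases before the start of Upk3b and 196 bases before that of Lrrn4, and Muc16 had none in this window. Of 32851 mouse promoters of the same length, 12.6% held GGAATG on either strand. The match is a description of letters and not a binding site.

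Outside the gate, 124 of 1176 measured genes (10.5%) were at least 4-fold higher in the mesothelial cells than in all other kept cells in both libraries, after 10 CPM was added to each side. All 17 measured genes of 20 listed mesothelial markers were among them, beside 8 of 9 measured keratin and junction genes. Gpm6a stood highest, at 1381 CPM in ND and 1441 CPM in HFD, 79.7-fold and 123-fold over the other cells. Its UMIs per cell ran from 0 over a median of 7 to 31 in ND and from 3 over 9 to 24 in HFD. Nkain4 was 67.8-fold and 79.7-fold higher than in other cells, the membrane protein gene Tmem151a 41.3-fold and 40.6-fold, and Muc16 34.4-fold and 51.8-fold. The secreted and signalling genes of this group included Rspo1, an amplifier of Wnt signalling, at 32.7-fold and 28.3-fold, and Rarres2, the precursor of the chemoattractant chemerin, at 23.5-fold and 36.9-fold. The membrane-bound transcription factor Myrf (25.2-fold and 26.7-fold), the chloride channel Ano1 (24.8-fold and 20.8-fold) and complement C2 (24.5-fold and 20.6-fold) followed. The remaining genes of the leading 15 were Fxyd3, Krt19, Krt7, the kinase Stk26, the iron reductase Cybrd1 and the junction protein Cxadr, between 16.3-fold and 69.5-fold.

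Krt19 was counted in 27 of 28 and 24 of 26 cells, at 670.2 and 743 CPM, and Krt8, Krt18 and Krt7 lay between 195 and 296 CPM in both libraries. No keratin or junction gene was 2-fold apart between the libraries, and the 9 measured genes had a median log2 difference of -0.11, beside -0.09 over all 1176 genes. Of the cadherins, Cdh11, a mesenchymal type, had 72 UMIs in 23 ND cells and 43 in 15 HFD cells, at 366 and 240.1 CPM, against 14.1 and 5.01 CPM in other cells. Cdh1, epithelial cadherin, had 0 and 1 UMIs, and was therefore at or under the level that a count of 0 allows, and Epcam was counted in 0 ND and 3 HFD cells. Ezr, ezrin, which ties microvilli to actin, was at 1036 and 731 CPM, against 76.2 and 47.3 CPM elsewhere. Its scaffold partner Slc9a3r1 was at 518 and 547 CPM, against 32.1 and 35.2 CPM.

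Of 18 measured matrix and mesenchymal genes, 1 was at least 4-fold over all other kept cells in both libraries, beside 10.5% of all measured genes. For single genes of this side, fibroblasts serve as the comparison. Cells with at least 3 of 5 fibroblast markers numbered 1065 in ND and 496 in HFD outside the rule. Vim, vimentin, was at 1335 and 1167 CPM in mesothelial cells and at 1685 and 1343 CPM in fibroblasts. The small proteoglycan Dcn was at 3996 and 5472 CPM, against 7986 and 5704 CPM in fibroblasts, and the collagen Col3a1 at 1782 and 1033 CPM, against 4060.2 and 3767 CPM. Among the growth factor binding genes, Igfbp5 was higher than in fibroblasts, at 16338 CPM in ND and 10045 CPM in HFD, against 6423 and 2603 CPM, as was Igfbp6, at 3823 and 6549.7 CPM, against 1172 and 839 CPM. Igfbp4 was lower, at 1706 and 1161 CPM, against 2658 and 2221 CPM, as was Igfbp7, at 868 and 525 CPM, against 1131 and 871 CPM. Slpi, a secreted protease inhibitor, was at 716 and 927 CPM, against 5.82 and 1.52 CPM in fibroblasts, but was counted in only 11 and 13 of the mesothelial cells. Of the 5 fibroblast markers, 7 ND and 2 HFD mesothelial cells had at least 3, and their summed level was 1081 and 1128 CPM, with 0 to 32 and 0 to 30 UMIs per cell and no marker at 0. Whether RNA of fibroblasts has a part in the matrix values was not tested.

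Complement and other defence genes formed a second secretory group. Of 9 measured genes, 4 were at least 4-fold over other cells, beside 10.5% of all measured genes, and 1, Cd55, was 2-fold lower in HFD, beside 3.57%. The Cd55 value was -2.43 and turned to 1.47 without 2 ND cells that held 67 of its 71 ND UMIs. C3, the central complement component, was at 4762 and 4690.3 CPM and counted in all 54 cells, with 4, 29 and 89 UMIs as lowest, median and highest count in ND and 1, 22 and 112 in HFD. The difference was -0.02 (-0.16 to 0.11), so a 2-fold difference lay outside the counting interval. C1s1, a protease of the classical pathway, was at 624 and 570 CPM, and the inhibitor Serping1 at 1295 and 1636 CPM. C4b was at 995 and 692 CPM, but its reads can be split with the near-identical C4a. Among 4 measured genes of fibrinolysis and coagulation, the thrombin receptor Thbd was at 178 and 335 CPM, with a difference of 0.91 (0.29 to 1.56), and none was 2-fold apart.

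In transport, 5 of 8 measured genes were at least 4-fold over other cells, beside 10.5% of all measured genes. The bicarbonate cotransporter Slc4a4 was at 366 and 274 CPM, against 26.5 and 30.0 CPM in other cells. Atp1b1, a sodium pump subunit, was at 467 and 670.0 CPM, 8.71-fold and 27.2-fold over other cells. The water channel Aqp1 was at 1432 and 882 CPM, against 1868 and 1243 CPM, so it did not mark these cells. In the retinoid group, Aldh1a2, which makes retinoic acid and is known from embryonic epicardium, was at 244 and 195 CPM, against 3.89 and 4.54 CPM in other cells. Serosal transcription factors were thinly counted. Gata6 was found in 21 and 21 cells, Tbx18 in 9 and 11, Gata5 in 9 and 8, and Tcf21, a factor of epicardial and fibroblast precursors, in 1 and 0 cells. Of 27 listed factors, 3 had enough UMIs to be measured, and none of these was 2-fold apart.

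Between the diets, most genes of the mesothelial cells lay within 2-fold. Of 1176 measured genes, 36 were at least 2-fold higher in HFD (3.06%) and 42 at least 2-fold lower (3.57%), the gate genes left out. The share of higher genes among them was 46.2% and moved to 57.0% with mitochondrial, haemoglobin and ribosomal genes left out of the totals, to 38.1% without the highest doublet scores and to 32.8% (22 higher, 45 lower) without cells holding Pecam1 and Cdh5, or Ptprc. Of 17 measured mesothelial markers, 1 was 2-fold higher in HFD and 0 were 2-fold lower, with a median of 0.06. Gpm6a differed by 0.06 (-0.19 to 0.31), Nkain4 by -0.08 (-0.41 to 0.25) and Muc16 by 0.22 (-0.22 to 0.66). For these 3 genes, a 2-fold difference in either direction lay outside the counting interval.

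**Figure D3:**
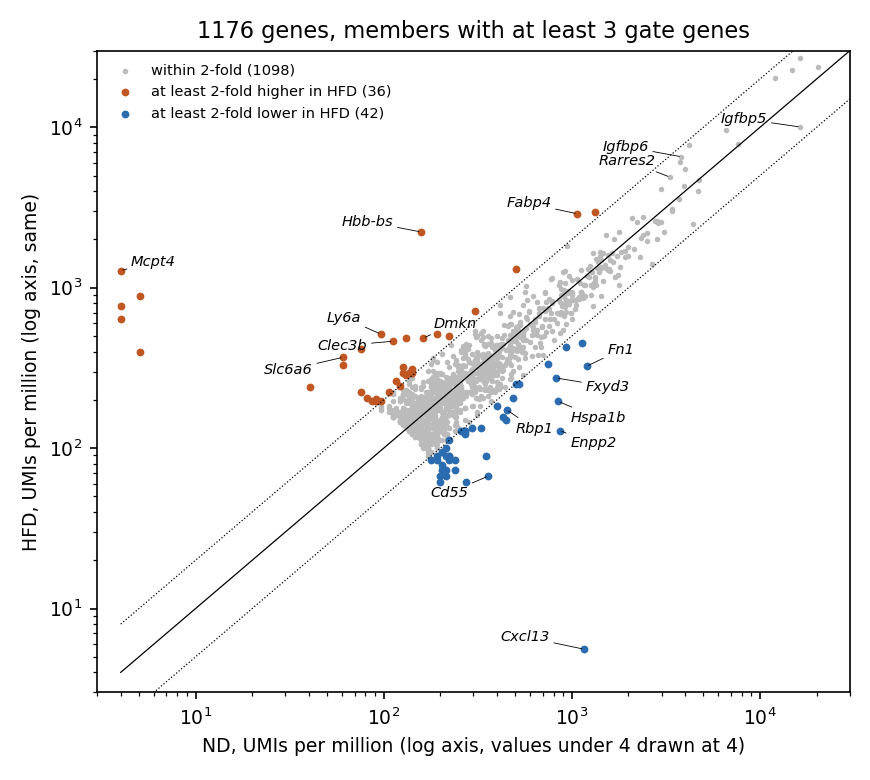
Levels of 1176 genes in the 54 mesothelial cells, in CPM, in ND (horizontal) and HFD (vertical), both on log axes, with values under 4 drawn at 4. Lines mark 2-fold. Of the genes, 36 lie above and 42 below, and 1098 lie between.

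Among the higher genes seen in many cells, Slc6a6, the taurine transporter, had 12 UMIs in 10 ND cells and 66 UMIs in 19 HFD cells. UMIs per cell ran from 0 over a median of 0 to 2 in ND and from 0 over 2 to 14 in HFD. Its level was 60.9 CPM in ND and 369 CPM in HFD, a log2 difference of 2.60 (1.70 to 3.62), and in all other kept cells it was 137 and 722 CPM. Its level was thus higher in the HFD library in the other cells as well. Ly6a, the Sca-1 surface antigen, had 19 UMIs in 7 ND cells and 92 in 16 HFD cells, a difference of 2.41 (1.69 to 3.21), beside 749 and 1062 CPM in other kept cells, and its reads can be shared with other Ly6 genes. Clec3b, the plasminogen-binding protein tetranectin, had 22 UMIs in 8 cells and 83 in 17, a difference of 2.05 (1.36 to 2.80), while other kept cells were at 254 CPM in ND and 178 CPM in HFD. Dmkn, the secreted protein dermokine, had 32 UMIs in 14 cells and 87 in 20, a difference of 1.58 (0.98 to 2.21), and was the listed mesothelial marker past 2-fold. It was at 0.92 with each cell weighted equally. The counts per cell overlapped between the libraries for all 4 genes.

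Mt1 and Mt2, the metallothioneins, had 99 and 38 UMIs in ND cells and 235 and 92 in HFD cells, differences of 1.38 (1.04 to 1.74) and 1.41 (0.85 to 2.0), and were picked out after their values had been seen. Several other higher genes came from few cells. Of 399 HFD UMIs of Hbb-bs, 354 lay in 1 cell, and of 31 ND UMIs 24 lay in 1 cell. The difference was 3.82 with all cells, 0.72 without the top HFD cell alone and 2.86 without the top cell of each library, where 7 and 45 UMIs were left. Hba-a1 (1.88) and Hba-a2 (2.44) were at 1.36 and 2.76 without the top cell of each library and at -0.52 and -0.14 without that of HFD alone, and reads of these haemoglobin genes can be shared with near-identical copies. Erythroid markers were counted in 7 of 26 HFD and 1 of 28 ND mesothelial cells, at least 3 of 5 each, beside 31.2% and 2.40% of the other kept cells. Their sum per cell ran from 0 to 493 UMIs in HFD and from 0 to 58 in ND, with Alas2 at 0, and their part was not tested.

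Fabp4, a fatty acid carrier, had 210 UMIs in ND, 131 of them in 1 cell, and 518 in HFD, 237 of them in 1 cell. Cd36, a fatty acid transporter, had 44 and 89 UMIs. These were the 2 of 8 measured lipid genes past 2-fold, at 1.44 and 1.15. Without the highest 6% of doublet scores among the kept cells of each library they were at -0.56 and -0.74. That step was uneven, as it left out 1 of 28 ND and 5 of 26 HFD mesothelial cells. The tight junction gene Cldn5 had 12 UMIs in 2 ND cells and 59 in 7 HFD cells, a difference of 2.43, and Mgll, monoacylglycerol lipase, 15 UMIs in 8 cells and 40 in 14 cells, a difference of 1.55. Without the highest doublet scores these were 0.70 and 0.96, under 2-fold. The 2 cells with the most Fabp4 also held 52 (ND) and 47 (HFD) UMIs of 5 endothelial markers. Over all mesothelial cells these markers summed to 645 and 648 CPM, against 2832 and 2753 CPM in other kept cells, with at least 3 of 5 in 2 ND and 4 HFD cells, none of the 5 at 0 and 0 to 52 (ND) and 0 to 47 (HFD) UMIs per cell. Their part in the lipid values was not tested. In HFD, 1 cell, picked out after its values had been seen, held all 229 UMIs of the mast cell protease Mcpt4 beside 5 gate genes, and another 98 of the 106 macrophage marker UMIs.

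Fxyd3, a regulator of the sodium pump, was the only 1 of the 10 lowest genes that was also among the 15 genes leading the mesothelial cells over other cells. It had 163 UMIs in 23 of 28 ND cells and 49 in 18 of 26 HFD cells. The lowest, median and highest counts per cell were 0, 4 and 21 in ND and 0, 1 and 8 in HFD, so the ranges overlap but the HFD cells lie lower. Its level was 828 CPM (705 to 965) in ND and 274 CPM (202 to 362) in HFD, a difference of -1.60 (-2.09 to -1.13), and -1.52 without the top cell. In other kept cells Fxyd3 was at 14.9 CPM in ND and 0.18 CPM in HFD, and in the 186 ND cells with airway markers at 189 CPM. The ND mesothelial cells held 37 airway marker UMIs in all, with 0 to 6 per cell and Cyp2f2 at 0, and their part in the Fxyd3 value was not tested.

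Of the heat shock genes, 1 of 8 measured was past 2-fold. This was Hspa1b, an inducible chaperone, with 167 UMIs in 20 ND cells and 35 in 12 HFD cells, a difference of -2.12 (-2.69 to -1.58). Its near-identical copy Hspa1a had 75 and 41 UMIs, a difference of -0.73 (-1.32 to -0.17), and reads can be split between the pair. The list as a whole had a median of -0.40. None of 19 measured immediate early genes was 2-fold apart, with Fos at 1762 and 1206 CPM and Egr1 at 2503 and 1959.9 CPM. The thyroid hormone receptor Thra (47 and 13 UMIs), the splicing factor Srsf7 (42 and 12), the ribosomal pseudogene Gm10076 (69 and 16, uncertain because of near-identical copies) and AC160336.1 (39 and 11) were further genes of the 10 lowest.

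Matrix and growth factor genes are read against 3.06% higher and 3.57% lower genes over all measured genes. Of 18 measured matrix genes, 0 were 2-fold higher and 2, Fn1 and Cyr61, were 2-fold lower, with a median of -0.25. Of 9 measured growth factor genes, 3 were 2-fold lower, namely Tgfb2 (-1.26, -2.19 to -0.39), the Wnt antagonist Sfrp2 (-1.51, -2.46 to -0.65) and Wnt4 (-1.09, -1.97 to -0.26), with a median of -0.70. Of these 5 genes, Fn1 and Wnt4 turned to 1.83 and 0.47 without the pair of ND cells described next. The proteoglycan Bgn had 147 UMIs in 25 ND cells and 60 in 11 HFD cells, a difference of -1.16 (-1.61 to -0.71). It was past 2-fold in 7 of 10 alternatives and at -0.79 without the highest doublet scores. The lysyl oxidase Loxl2 had 54 and 11 UMIs, but 35 of the former lay in 1 cell, and the difference was -0.68 without it.

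A pair of ND cells set several of the lower values. They held all 228 ND UMIs of Cxcl13, the B cell attracting chemokine, 136 in the first and 92 in the second, while HFD cells held 1 UMI. With 14915 and 16892 UMIs these cells had 3 to 4 gate genes and 2 to 3 outside markers. They had 22 UMIs of Wt1 and 6 of Upk3b between them but 0 of Gpm6a, Muc16 and Msln. They also held 142 of the 170 ND UMIs of the lysophospholipase Enpp2, 67 of 71 of the complement inhibitor Cd55, and 221 of 236 of fibronectin Fn1. Without the pair, the difference moved from -2.75 to -0.40 for Enpp2, from -2.43 to 1.47 for Cd55, from -1.89 to 1.83 for Fn1 and from -1.09 to 0.47 for Wnt4.

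The mesothelial cells also varied within each library along markers that the rule did not use, picked out after the values had been seen. At least 3 UMIs of Myl7, a myosin light chain of atrial muscle, were counted in 7 ND cells (25%, 10.7 to 44.9) and 3 HFD cells (11.5%, 2.45 to 30.2). At least 3 UMIs of Clec3b were counted in 4 ND cells (14.3%, 4.03 to 32.7) and 12 HFD cells (46.2%, 26.6 to 66.6). No cell passed both limits. In ND, the Myl7 cells held 1722 CPM of Bgn, against 264 CPM in the Clec3b cells, 3095 CPM of Gpx3, a secreted glutathione peroxidase, against 88.1 CPM, and 2012 CPM of Dcn, against 6487 CPM. The Gpx3 level of the ND Myl7 cells came mostly from 3 of the 7 cells, which held 25, 70 and 60 of the 160 Gpx3 UMIs while the others held 1 or 2 each, and its lowest, median and highest value per cell were 176, 327 and 5856 CPM. In HFD, the same order was seen, with Bgn at 1550 and 119 CPM, Gpx3 at 1550 and 141 CPM and Dcn at 1926 and 6368 CPM. Igfbp5 was higher in the Myl7 cells of both libraries, at 25379 against 15469 CPM in ND and 27222 against 7657 CPM in HFD. Upk3b, a gate gene, is given as a description only. In ND it was at 3288 CPM (2813 to 3822) in the Myl7 cells and 2143 CPM (1679.5 to 2694) in the Clec3b cells. In HFD it was at 3015 and 2534 CPM, with intervals that overlap. Because the rule used Upk3b, no difference between these kinds of cell is read from its level. Of 5 cardiomyocyte markers, 4 were at 0 in each library and the other had 1 UMI, so Myl7 was counted here without the genes that define heart muscle. The share of Clec3b cells restates the Clec3b counts by its definition. The part of these kinds in the diet values of Bgn and Igfbp5 was not tested.

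**Figure D4:**
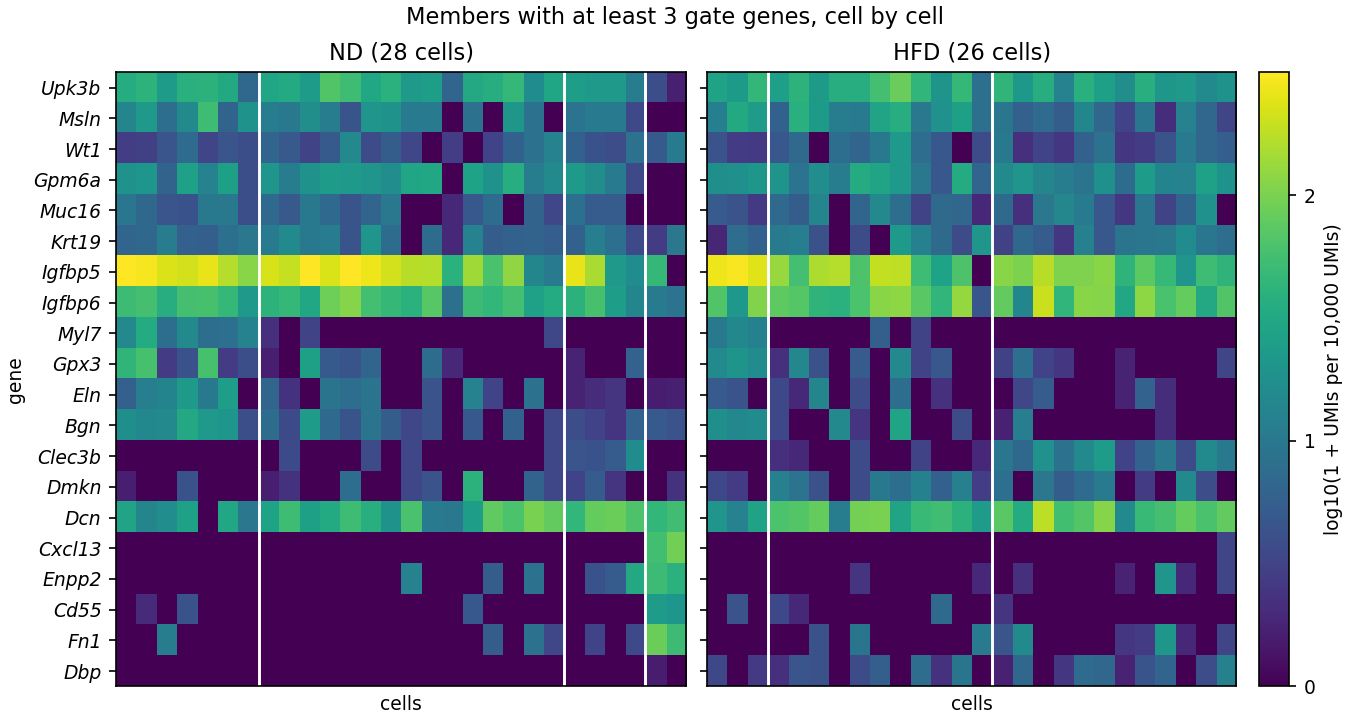
Counts of 20 genes (rows) in each of 28 ND and 26 HFD mesothelial cells (columns), coloured by log10 of 1 plus UMIs per 10000 UMIs. White lines divide, from left to right, cells with at least 3 Myl7 UMIs, cells with neither, cells with at least 3 Clec3b UMIs and, in ND, the 2 Cxcl13 cells, which lack Msln, Gpm6a and Muc16.

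Several output genes of the circadian clock were far apart between the libraries, although none of the 16 listed clock genes reached 50 UMIs. The clock factors Arntl and Clock drive transcription of Dbp, Nr1d1 and the Per genes, whose products in turn act on the loop or on its targets. Dbp, a PAR-domain transcription factor (ENSMUSG00000059824, chr7:45705088-45710203 on the plus strand), had 1 UMI in 1 of 28 ND cells and 48 UMIs in 20 of 26 HFD cells, with 0 to 1 UMIs per ND cell and 0 to 5 per HFD cell, median 1. That was 5.08 CPM (0.129 to 28.3) in ND and 268 CPM (198 to 355) in HFD, a log2 difference of 5.72 (3.18 to 11.06). The 1 ND UMI lay in 1 of the 2 Cxcl13 cells, which lacked Msln, Gpm6a and Muc16. After thinning to 1000 UMIs, Dbp was counted in 0% of ND and 26.9% of HFD cells, at equal depth per cell. In cells with at least 3 of 5 endothelial markers it was counted in 1.86% of ND and 6.51% of HFD cells without thinning. Nr1d1, the repressor REV-ERB alpha (chr11:98767932-98775333, minus strand), had 6 UMIs in 4 ND cells and 37 in 15 HFD cells, a difference of 2.76 (1.50 to 4.30). Tef, the relative of Dbp, had 4 UMIs in 4 cells and 23 in 15, a difference of 2.66 (1.11 to 4.65). Per3 had 2 and 14 UMIs (2.94, 0.82 to 6.12) and Bhlhe41 2 and 11 (2.60, 0.40 to 5.81). Hlf, the third PAR-domain gene, had 13 and 25 UMIs (1.08, 0.06 to 2.17). Bhlhe40 had 12 and 22 UMIs. Per1 had 24 and 23 UMIs, Clock 14 and 12, Cry1 8 and 4, Cry2 2 and 2, Per2 3 and 6, Nr1d2 6 and 14, Npas2 2 and 1, and Ciart 1 and 1. Arntl had 8 and 1, with an interval of -8.33 to 0.04.

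In all other kept cells, Dbp was at 3.89 CPM (3.18 to 4.72) in ND and 14.9 CPM (13.1 to 16.9) in HFD, and in fibroblasts at 5.19 and 33.7 CPM. The direction was thus shared and the level in HFD mesothelial cells was higher, 268 against 14.9 CPM, with intervals that do not overlap. Nr1d1 was at 12.4 and 26.9 CPM in the other cells and at 7.27 and 55.7 CPM in fibroblasts, beside 30.5 and 207 CPM in mesothelial cells. Nr1d2 was at 10.6 and 62.5 CPM in fibroblasts, beside 30.5 and 78.2 CPM in mesothelial cells. Higher levels of these 2 genes in HFD were thus not particular to mesothelial cells. Tef was at 22.8 and 19.9 CPM in the other cells and at 27.2 and 36.4 CPM in fibroblasts. The sources used here do not state the hour of sampling, so diet and hour cannot be told apart. In HFD, 10 of 12 Clec3b cells, 2 of 3 Myl7 cells and 8 of 11 others had a UMI of Dbp, so its UMIs were not confined to either kind.

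**Figure D5:**
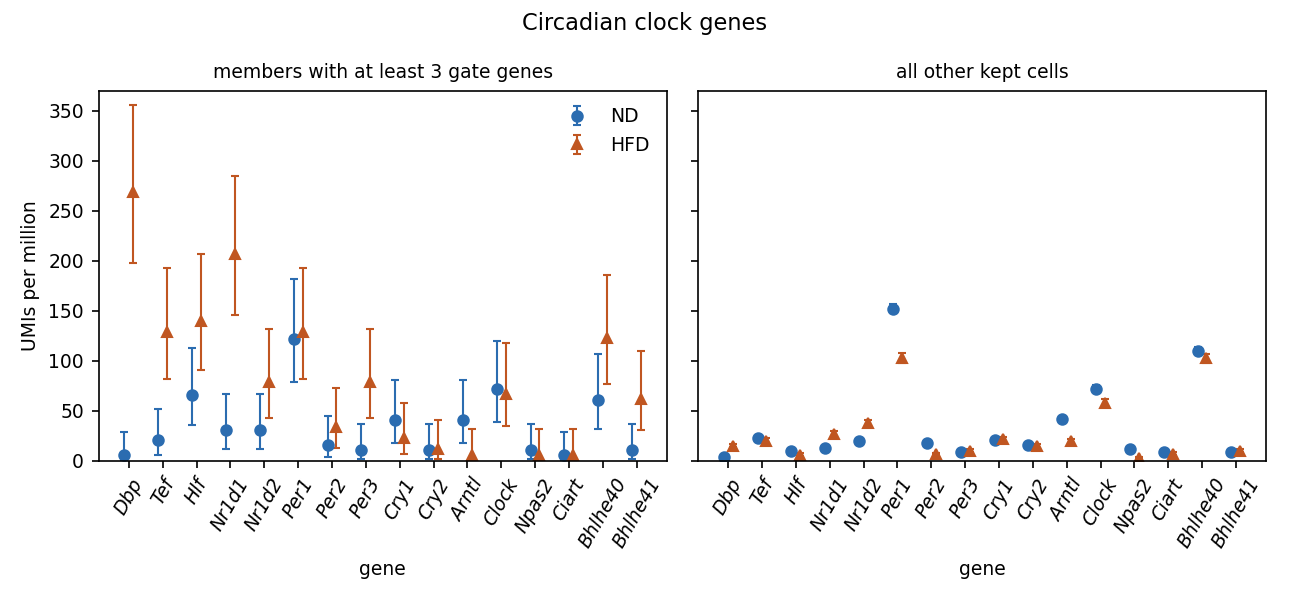
Levels of 16 circadian clock genes in CPM (vertical, linear from 0) in the 54 mesothelial cells (left) and in all other kept cells (right), ND and HFD side by side, with exact 95% intervals. Dbp and Nr1d1 in HFD mesothelial cells, at 268 and 207, stand above every other value of these 2 genes.

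The promoters of Dbp (chr7:45704997-45705246, plus strand) and Nr1d1 (chr11:98775378-98775627, minus strand) are shown because both genes were higher in HFD, as the 250 bases before the RefSeq start in GRCm38.p6, 5′ to 3′. They were searched on both strands for the E-box CACGTG, which clock factors can bind, and for the GC box GGGCGG, and capitals mark the match.

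Dbp: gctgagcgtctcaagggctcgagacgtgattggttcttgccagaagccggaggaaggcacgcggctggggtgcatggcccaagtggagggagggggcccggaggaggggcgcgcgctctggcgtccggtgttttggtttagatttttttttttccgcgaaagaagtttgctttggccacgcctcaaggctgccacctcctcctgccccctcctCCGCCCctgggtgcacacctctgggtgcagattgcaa
Nr1d1: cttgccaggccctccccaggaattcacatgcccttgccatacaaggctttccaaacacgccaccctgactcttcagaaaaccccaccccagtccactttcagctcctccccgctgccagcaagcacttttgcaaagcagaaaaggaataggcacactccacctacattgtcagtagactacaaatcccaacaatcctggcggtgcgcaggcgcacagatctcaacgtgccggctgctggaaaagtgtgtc

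Dbp had a GC box, in its reverse complement, beginning 37 bases before the RefSeq start, and neither window held the E-box. The GENCODE position of Dbp given above begins inside the printed window. Part of the window, with the GC box, thus lies within the gene by GENCODE. Of 32851 promoters, 32.7% held the GC box and 6.02% the E-box, so neither result separates these genes from promoters at large, and the absence of the letters says nothing about sites elsewhere in the genes.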

How the data were processed

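Single-cell RNA sequencing counts of 1 ND and 1 HFD library were analysed, each from 2 pooled aortic arches. The authors deposited raw UMI counts per gene and barcode from Cell Ranger (3.0.1 in the file headers, with mm10 in the submitters' processing notes), without normalization, including barcodes that their filter removed. The joined matrices were not used. The filter of the methods was applied. The members and gene lists were chosen with earlier results of these data known.

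UMIs were summed over members per library and divided by their total. Exact 95% intervals were taken from the Poisson distribution (CPM), the Clopper-Pearson method (shares) and the conditional binomial distribution (log2 ratios). Genes with at least 50 UMIs counted as measured, and a 2-fold point ratio counted a gene as higher or lower. Named were the gate genes, the 15 genes highest over other cells, the 10 highest and 10 lowest in HFD with at least 4 UMIs per library and at least 5 cells, and per list up to 6 with most UMIs or past 2-fold. Genes outside this rule are said to be picked afterwards, or serve as markers. Scrublet (scanpy 1.11.5) called 0 ND cells and 1 HFD cell, so it did not work as a caller, and its highest 6% of scores were left out as an alternative. Others changed the gate, the mitochondrial limit, scaling, the weight of cells, the UMI minimum and single cells. The intervals and the ranking were tested on simulated Poisson sums per gene and library. These sums hold no spread between cells, mice or libraries, so the test says nothing about such spread. Python 3.11.15, numpy 2.4.6, scipy 1.17.1, pandas 2.3.3 and matplotlib 3.10.9 were used. Gene positions came from GENCODE on GRCm38, the build of mm10.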

Additional observations from a re-analysis of the deposited data

Results flagged for a closer look

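Mesothelial RNA was also present in barcodes that the filter had removed. In the HFD library 27 of 11486 removed barcodes (0.235%, 0.155 to 0.342) had at least 2 gate genes, above the 0.0261% that a count of 0 allows. All 27 were over the mitochondrial limit, with a median of 63.8% mitochondrial UMIs, and 16 had a UMI of Gpm6a, Nkain4, Muc16 or Bnc1. In the ND library 3 of 4818 removed barcodes (0.0623%, 0.0128 to 0.182) had at least 2 gate genes. All 3 were over the mitochondrial limit and had a UMI of Gpm6a, Nkain4, Muc16 or Bnc1. The limit for a count of 0 was set at 3 barcodes, so this share equals it by construction. The filter kept 93.3% (81.7 to 98.6) of ND and 51.8% (38.0 to 65.3) of HFD barcodes with at least 2 gate genes, beside 52.9% and 19.3% of all barcodes. The ND value includes the 14 airway-marked cells. With at least 3 gate genes, which leaves them out, it kept 96.6% (82.2 to 99.9) and 65% (48.3 to 79.4).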

How the results depend on the processing

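No paired analysis was possible because each diet has 1 library. Requiring 3 gate genes put the ND share at 0.517%, as did leaving out the airway-marked cells. Thinning to 1000 UMIs put it at 0.467%. A 20% mitochondrial limit, under which members and kept cells were both fewer, put the shares at 1.05% in ND and 1.77% in HFD. For all members, genes higher and lower in HFD numbered 36 and 42 with 3 gate genes, 187 and 463 with a median of ratios, 1072 and 614 at 20 UMIs, 209 and 119 at 100 UMIs, and 67 and 60 without airway-marked cells, and 153 were higher with each cell weighted equally. A lower or higher UMI minimum changes the number of genes tested by construction. Genes 4-fold over other cells went from 77 to 124, 130 and 121 with 3 gate genes, equal weights and airway-marked cells left out. In the 54 mesothelial cells, 22 genes were higher and 45 lower without cells holding Pecam1 and Cdh5, or Ptprc, 152 and 231 were higher and lower at 20 UMIs, and 15 and 15 at 100 UMIs. Directions reversed for Hba-a1 (-1.27) and Hba-a2 (-0.48) at the 20% limit, for Cd36 (-0.74) and Fabp4 (-0.56) without the highest doublet scores, and for Cd55 (1.47), Fn1 (1.83) and Wnt4 (0.47) without the pair of Cxcl13 cells. Apart from these constructions, the cause was not tested. Of the values of single genes over these alternatives, 1134 lay within the counting interval of the value with all cells, which is wide for low genes and can span 0, as for Plaur (0.55, down to -0.73), 52 lay outside it and 7 past 2-fold changed sign. Dbp ranged from 5.18 to 7.20 over the 8 alternatives that gave it a ratio. Its only ND UMI lay in 1 of the Cxcl13 cells, which was also the deepest ND cell. Leaving out the pair or the deepest cells left no ND UMI of Dbp, so no ratio could be given there. Nr1d1 ranged from 2.51 to 3.28, Slc6a6 from 2.06 to 2.81, Fxyd3 from -1.85 to -1.35 and Hspa1b from -2.49 to -1.84.

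Depth limits low genes most, as the interval of Dbp in ND shows, which reaches from 0.129 to 28.3 CPM on 1 UMI.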
